A study of Brassica oleracea var. capitata with 6 samples.

Results

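The study assigned 7 genes with lower expression in *nwgl* leaves to tyrosine metabolism. They comprised 3 annotated genes (*Bol033528*, *Bol033662* and *Bol044773*) and 4 new loci from the transcript assembly (Kohlrabi_newGene_3371, Kohlrabi_newGene_4041, Kohlrabi_newGene_5485 and Kohlrabi_newGene_38225), out of 31497 annotated genes and new loci in the deposited table. The study chose them because they were lower in these same libraries. Their difference between genotypes is therefore given here as a description and supports nothing further. RNA was sequenced from cabbage (*Brassica oleracea* var. *capitata*) leaves at the harvesting stage, in 3 biological replicates of the glossy mutant *nwgl* and 3 of the wild-type. The *nwgl* phenotype, leaves with little wax bloom, is a dominant trait that arose in the inbred line G287. Whether the sequenced *nwgl* plants carried the mutant allele in one or both copies, and whether a replicate was a single plant, is not given in the sources used here.

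Tyrosine is made from the shikimate pathway in plastids. Removal of its amino group gives 4-hydroxyphenylpyruvate, which is turned into homogentisate, the precursor of plastoquinone and of the tocopherols (vitamin E) or a substrate for breakdown to fumarate and acetoacetate. A separate branch removes the carboxyl group of tyrosine, giving the amines from which isoquinoline alkaloids are built in some plants. The study's annotation placed *Bol033528*, *Bol033662* and Kohlrabi_newGene_4041 under isoquinoline alkaloid biosynthesis and under tropane, piperidine and pyridine alkaloid biosynthesis as well, and the first pair also under cysteine and methionine metabolism. Within the study's list of down-regulated pathways, *Bol044773* and the other 3 new loci were listed under tyrosine metabolism alone. Among genes near changed lncRNAs, the study also placed *Bol044773* under glycolysis and gluconeogenesis and under degradation of aromatic compounds. Below, a listing under tyrosine metabolism alone refers to the down-regulated pathways only. Neither the table nor the study's lists say which enzyme each ID encodes, so the genes are grouped below by these listings.

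Expression was given as FPKM, a fragment count scaled by the length of the transcript and the size of the library. Relative sequencing depth, read from ratios that recur among genes with very low FPKM, was 0.948 to 1.02 in *nwgl* libraries and 0.893 to 1 in wild-type libraries when wild-type replicate 1 was set to 1. The 10 genes of highest FPKM took 22.7% to 57.3% of the summed FPKM of *nwgl* libraries, the most in *nwgl* replicate 3, and 29.1% to 47.7% of wild-type libraries. As a check of the labels, *Bol018504*, which encodes CER1, an enzyme of wax alkane synthesis in the mapped *nwgl* interval, was between 5.09 and 5.97 FPKM in *nwgl* replicates and between 44.0 and 142 FPKM in wild-type replicates. The study reported this gene as lower in these same libraries, so the check concerns the reading of the columns and is not independent. Leaf marker genes were not checked, because the IDs of the table were not paired with gene names here.

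*Bol033662* was the most abundant of the 7 genes. It was at 2.50, 2.51 and 2.13 FPKM in *nwgl* replicates 1, 2 and 3, against 6.23, 15.6 and 11.0 FPKM in wild-type replicates 1, 2 and 3. The *nwgl* replicates lay close together, while the wild-type replicates were widely spread. The means were 2.38 ± 0.215 FPKM in *nwgl* leaves and 10.9 ± 4.66 FPKM in wild-type leaves (SD, n = 3 each), so that *nwgl* leaves held 21.8% of the wild-type mean. In wild-type leaves this level was above that of 82.5% of the 24332 genes tested, and in *nwgl* leaves above that of 46.2%.

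*Bol033528*, which carries the same 4 pathway listings, was the least abundant. It was at 0.119, 0.0315 and 0.0568 FPKM in *nwgl* replicates 1, 2 and 3, against 0.834, 0.450 and 0.616 FPKM in the wild-type replicates. *nwgl* replicate 1 and wild-type replicate 1 were the highest of their genotypes. The means were 0.0692 ± 0.0453 FPKM in *nwgl* leaves and 0.633 ± 0.192 FPKM in wild-type leaves (SD, n = 3 each), a 9.15-fold ratio of wild-type to *nwgl*. The *nwgl* values are low enough that a few fragments could move them, and how many fragments lie behind them is unknown.

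Kohlrabi_newGene_4041, the third gene also listed under the alkaloid pathways, had the largest difference of the 7. It was at 0.307, 0.171 and 0.0879 FPKM in *nwgl* replicates 1, 2 and 3, against 3.35, 4.39 and 3.64 FPKM in the wild-type replicates. The lowest wild-type replicate was 10.9-fold above the highest *nwgl* replicate, and the wild-type replicates were the most alike of any of the 7 genes. *nwgl* leaves held 4.97% of the wild-type mean (0.188 ± 0.110 FPKM in *nwgl* and 3.79 ± 0.536 FPKM in wild-type, SD, n = 3 each).

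The 4 genes listed under tyrosine metabolism alone were at intermediate levels. Kohlrabi_newGene_38225 was at 0.669, 1.05 and 1.74 FPKM in *nwgl* replicates 1, 2 and 3, against 3.12, 6.68 and 5.05 FPKM in the wild-type replicates. Kohlrabi_newGene_5485 was at 0.570, 0.814 and 1.52 FPKM in *nwgl* replicates 1, 2 and 3, against 2.51, 6.77 and 4.48 FPKM in the wild-type replicates. These loci ran closely together, with the same replicate highest and the same replicate lowest in each genotype. The ratio of Kohlrabi_newGene_5485 to Kohlrabi_newGene_38225 was 0.835 ± 0.0505 in *nwgl* leaves and 0.901 ± 0.105 in wild-type leaves (SD, n = 3 each). Whether they share sequence, and thus reads, was not tested, and their values may not be independent of each other.

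Kohlrabi_newGene_3371 was at 0.603, 0.324 and 1.19 FPKM in *nwgl* replicates 1, 2 and 3, against 2.11, 6.32 and 3.11 FPKM in the wild-type replicates. *Bol044773* was at 0.203, 0.620 and 0.993 FPKM in *nwgl* replicates 1, 2 and 3, against 2.56, 4.08 and 1.25 FPKM in the wild-type replicates. Both varied widely within each genotype, and in each the highest *nwgl* value was that of replicate 3 and the highest wild-type value that of replicate 2. The genotypes came closest in *Bol044773*, in which the lowest wild-type replicate was 1.26-fold above the highest *nwgl* replicate, against 1.65-fold to 10.9-fold in the other 6 genes.

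**Figure D1:**
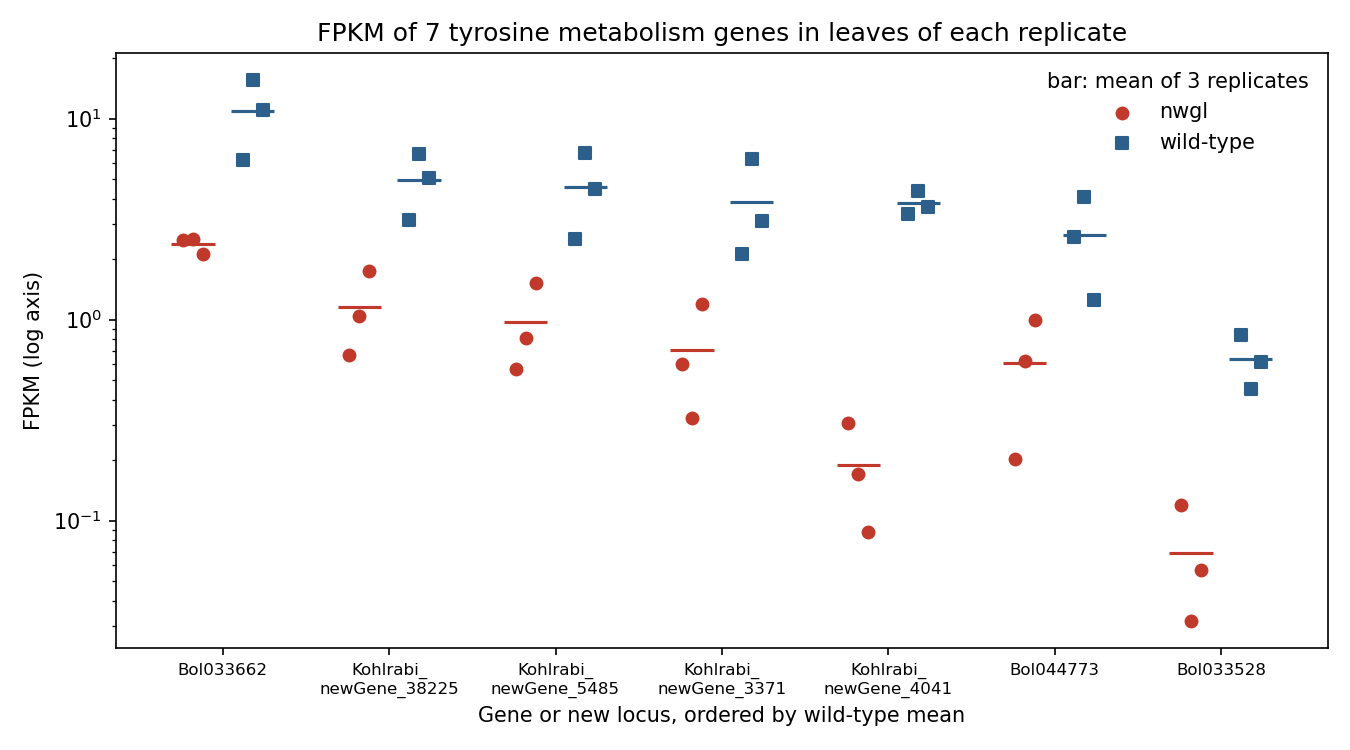
FPKM (log axis) of each of the 7 tyrosine metabolism genes in 3 *nwgl* replicates (circles, left) and 3 wild-type replicates (squares, right), with bars at the means of each genotype. In each gene the *nwgl* points lie below the wild-type points, with the widest gap for Kohlrabi_newGene_4041 (10.9-fold) and the narrowest for *Bol044773* (1.26-fold).

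In all 7 genes the highest *nwgl* replicate lay below the lowest wild-type replicate, in a table in which 8.54% of the genes tested had every *nwgl* replicate below every wild-type replicate (9.47% of new loci and 8.38% of annotated genes). The same held for all 7 after the libraries were rescaled by median-of-ratios size factors. The order of the genes by wild-type mean was *Bol033662*, Kohlrabi_newGene_38225, Kohlrabi_newGene_5485, Kohlrabi_newGene_3371, Kohlrabi_newGene_4041, *Bol044773* and *Bol033528*. *Bol033662* was the highest and *Bol033528* the lowest of the 7 in every replicate, and the genes between them were less clearly ordered. *Bol033662* exceeded Kohlrabi_newGene_38225 by 1.23 ± 0.747 FPKM in *nwgl* leaves and by 5.98 ± 2.88 FPKM in wild-type leaves (SD of the within-library difference, n = 3 each), in every replicate. Kohlrabi_newGene_38225 and Kohlrabi_newGene_5485 differed by 0.184 ± 0.0737 FPKM in *nwgl* leaves and by 0.365 ± 0.388 FPKM in wild-type leaves. Kohlrabi_newGene_3371 and Kohlrabi_newGene_4041 differed by 0.0550 ± 1.67 FPKM in wild-type leaves, less than the spread between replicates. In *nwgl* leaves the order changed at one place, since Kohlrabi_newGene_4041 lay below *Bol044773* in 2 of 3 replicates, by 0.417 ± 0.505 FPKM on average.

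The summed FPKM of the 7 genes was 4.97, 5.52 and 7.72 in *nwgl* replicates 1, 2 and 3, against 20.7, 44.2 and 29.1 in the wild-type replicates. The mean sum was 6.07 ± 1.45 FPKM in *nwgl* leaves and 31.4 ± 11.9 FPKM in wild-type leaves (SD, n = 3 each), a ratio of 0.193, and the ratio was 0.1804 when *Bol033662* was left out of the sum. *Bol033662* carried the largest share, 41.1 ± 11.9% of the sum in *nwgl* leaves and 34.3 ± 3.89% in wild-type leaves (SD, n = 3 each). The shares overlapped, since *Bol033662* made up 50.3%, 45.5% and 27.6% of the sum in the *nwgl* replicates and 30.1% to 37.7% in the wild-type replicates. Shares of Kohlrabi_newGene_4041 were the only ones that did not overlap, at 1.14% to 6.17% in *nwgl* replicates and 9.92% to 16.2% in wild-type replicates. For each of the other 6 genes the shares in the genotypes overlapped. The 4 genes listed under tyrosine metabolism alone made up 54.2 ± 15.0% of the sum in *nwgl* leaves and 50.4 ± 3.17% in wild-type leaves (SD, n = 3 each). Since FPKM is scaled by length, these are shares of transcripts as FPKM counts them, not of fragments.

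**Figure D2:**
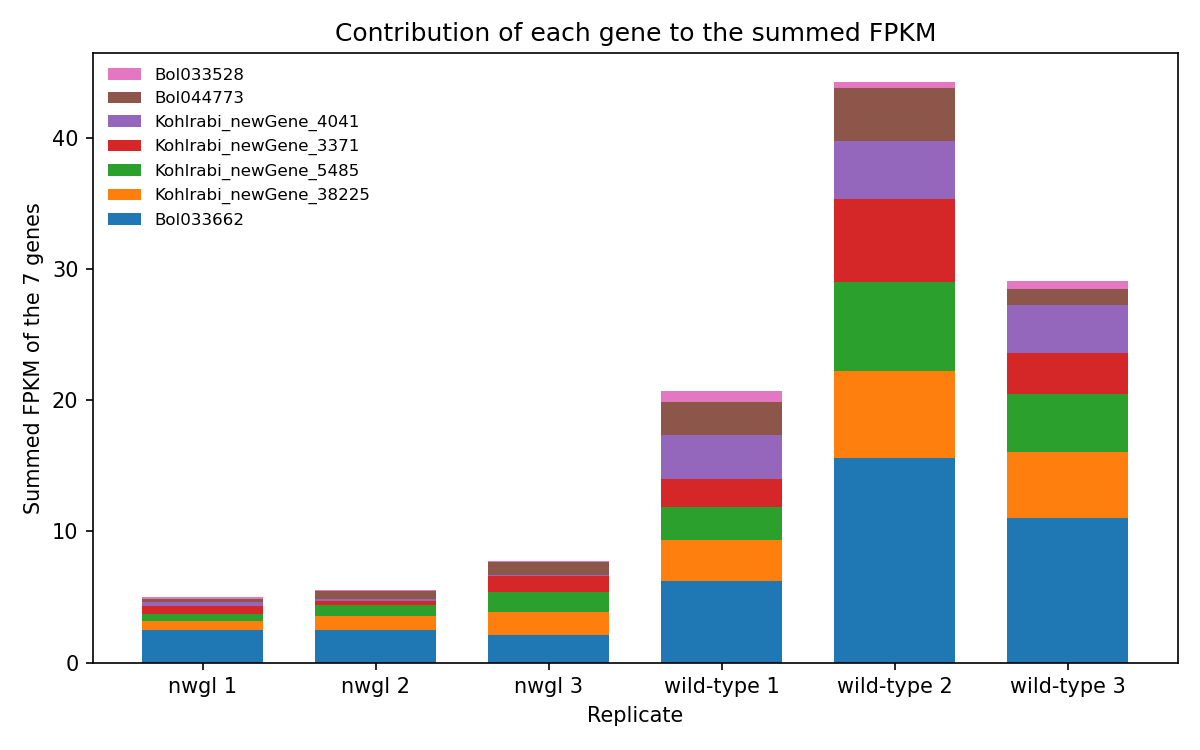
Summed FPKM of the 7 tyrosine metabolism genes in each replicate, *nwgl* left and wild-type right, with each coloured segment the FPKM of 1 gene. The sums are 4.97 to 7.72 in *nwgl* replicates and 20.7 to 44.2 in wild-type replicates, and *Bol033662* (bottom segment) is the largest segment in each replicate.

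Genotypes were compared across all genes with limma on log2(FPKM + 0.1), and the word called is used of genes whose p, adjusted by Benjamini-Hochberg, was under 0.05 and whose log2 fold change was 1 or more in size. On this scale the log2 fold change of *nwgl* against wild-type was -3.82 (standard error 0.45) for Kohlrabi_newGene_4041. It was -2.30 (standard error 0.56) for Kohlrabi_newGene_3371 and between -2.12 and -1.99 for the other 5 genes (standard errors 0.42 to 0.61). The median over the 7 genes was -2.12, beside -0.04 over all genes tested. Thus, with 0.1 added, 6 of the 7 differences were of much the same size and lay within their standard errors of each other. For *Bol033528* this similarity depends on the added 0.1. Kohlrabi_newGene_4041, *Bol033662*, Kohlrabi_newGene_38225 and Kohlrabi_newGene_5485 were called lower, 4 of 7, where 1.2% of all genes tested were called lower. The study had selected all 7 genes on this difference with another test, DESeq, at the same thresholds. Nothing is therefore read from that count, for or against the study's calls.

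The added 0.1 shrinks the fold of genes near it. For *Bol033528* the log2 fold change was -2.12 with 0.1 added and -3.36 with nothing added, which places it next after Kohlrabi_newGene_4041 at -4.50. The other 5 genes lay between -2.49 and -2.11 with nothing added. Kohlrabi_newGene_4041 kept its call in each of the 6 fits without one library and under all 8 other settings tried. *Bol033662* was called under all 8 other settings, but in only 1 of the 6 fits without one library. Kohlrabi_newGene_38225 and Kohlrabi_newGene_5485 were each called in 1 of those 6 fits, and under 5 and 4 of the 8 other settings in that order. *Bol044773* was called under none of these. Kohlrabi_newGene_3371 was called in 1 of the 6 fits without one library and under 1 of the 8 other settings. *Bol033528* was called in 0 of those 6 fits and under 2 of 7 other settings. The number of the 7 genes called was 1 without *nwgl* replicate 1, without *nwgl* replicate 2, without wild-type replicate 2 or without wild-type replicate 3. It was 2 without wild-type replicate 1 and 4 without *nwgl* replicate 3, where Kohlrabi_newGene_3371 was called and *Bol033662* was not. The direction was the same in every one of these fits.

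**Figure D3:**
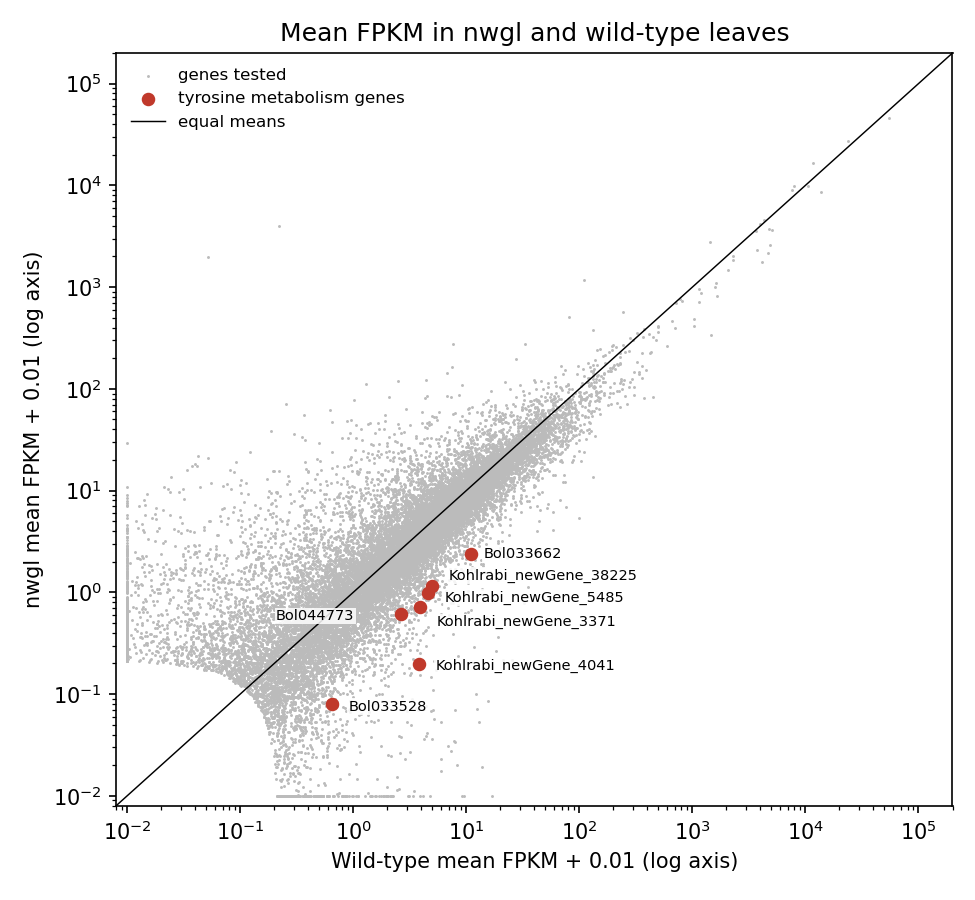
Mean FPKM + 0.01 in *nwgl* leaves (vertical, log axis) against wild-type leaves (horizontal, log axis) for 24332 genes tested (grey), with the 7 tyrosine metabolism genes in red and a line of equal means. The 7 genes lie below the line, Kohlrabi_newGene_4041 farthest at 0.188 FPKM in *nwgl* and 3.79 FPKM in wild-type leaves.

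The spread between replicates of a genotype was not shared by the 7 genes. It was narrow in *nwgl* leaves and wide in wild-type leaves for *Bol033662*, with coefficients of variation of 9.05% in *nwgl* and 42.7% in wild-type. Kohlrabi_newGene_4041 had the opposite pattern, 58.6% in *nwgl* and 14.1% in wild-type. The contrast stayed after median-of-ratios scaling, at 15.95% in *nwgl* and 38.6% in wild-type for *Bol033662*, and 67.0% in *nwgl* and 18.5% in wild-type for Kohlrabi_newGene_4041. With 3 replicates a coefficient of variation is itself imprecise. The pooled standard deviation within genotypes on the log2(FPKM + 0.1) scale was 0.61 for the median gene tested, and the 7 genes lay on both sides of it, from 0.38 for *Bol033528* to 0.88 for *Bol044773*.

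Among the *nwgl* libraries, the replicate in which a gene was highest differed between the pathway listings, a split of 7 genes made after their values were seen and not tested. All 4 genes listed under tyrosine metabolism alone were highest in *nwgl* replicate 3 among the *nwgl* libraries, although only 19.8% of the genes tested were. Of the 3 genes also listed under alkaloid pathways, *Bol033528* and Kohlrabi_newGene_4041 were highest in *nwgl* replicate 1 and *Bol033662* in *nwgl* replicate 2. The median deviation in *nwgl* replicate 3 from the genotype mean, on the log2(FPKM + 0.1) scale, was 0.76 for the 4 genes, -0.15 for the 3 genes and -0.20 for all genes tested. This is the library in which the 10 genes of highest FPKM took the largest share. After median-of-ratios scaling the 4 genes were still highest in *nwgl* replicate 3, and the other 3 genes were highest in *nwgl* replicate 1.

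Among wild-type libraries, 6 of the 7 genes were highest in replicate 2, the exception being *Bol033528*, which was highest in replicate 1. Of all genes tested, 49.9% were highest in wild-type replicate 2, and the median gene there lay 0.27 above its wild-type mean on the log2(FPKM + 0.1) scale. The order did not hold after median-of-ratios scaling, with 4 of the 7 genes highest in wild-type replicate 3 and 2 in replicate 2. Unlike the place of the 4 genes in *nwgl* replicate 3, the order of the wild-type replicates thus changed with the scaling.

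Each gene has 6 deviations from its genotype means, and the Pearson correlation of these between genes was taken as a description of covariation, with no test. The libraries are shared by all genes, and the deviations of a genotype sum to 0. Over the 21 pairs among the 7 genes the mean r was 0.0909, and single pairs ranged from -0.784 to 0.989, while the mean over all pairs of the 24332 genes was 0.189. The mean r of the 7 genes was thus below that of genes in general with the deposited values, and above it with a pseudocount of 1 (0.200 beside 0.190) and after median-of-ratios scaling (0.191 over the 21 pairs, beside 0.00137 over all pairs of genes). Over the 6 pairs of genes listed under tyrosine metabolism alone, the mean r was 0.717, with a range of 0.450 to 0.989. Over the 12 pairs that join one of these 4 genes to one of the other 3, the mean was -0.199, and over the 3 pairs within those other 3 it was -0.00202. These means hide that *Bol033662*, though listed under the alkaloid pathways, varied with 3 of the 4 genes, at an r of 0.601 with Kohlrabi_newGene_5485, 0.527 with Kohlrabi_newGene_3371 and 0.515 with Kohlrabi_newGene_38225. Its r was 0.0664 with *Bol044773*, 0.454 with Kohlrabi_newGene_4041 and -0.673 with *Bol033528*. All 8 pairs that join *Bol033528* or Kohlrabi_newGene_4041 to the 4 genes were negative. With the deposited values the 4 genes thus varied together, while the other 3 had a mean r of -0.00202. That mean covers only 3 pairs of unlike sign, at 0.454, 0.213 and -0.673. It depended on the setting, from -0.220 with a pseudocount of 1 to 0.297 after median-of-ratios scaling. Whether the pathway listing parts the 7 genes was not tested. The highest value, 0.989, was that of Kohlrabi_newGene_38225 with Kohlrabi_newGene_5485, and the lowest, -0.784, that of *Bol033528* with Kohlrabi_newGene_38225. After median-of-ratios scaling the mean was 0.696 over the pairs of the 4 genes and -0.0875 over the 12 pairs that join them to the other 3. With a pseudocount of 1 the mean over these 12 joining pairs was 0.0390.

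**Figure D4:**
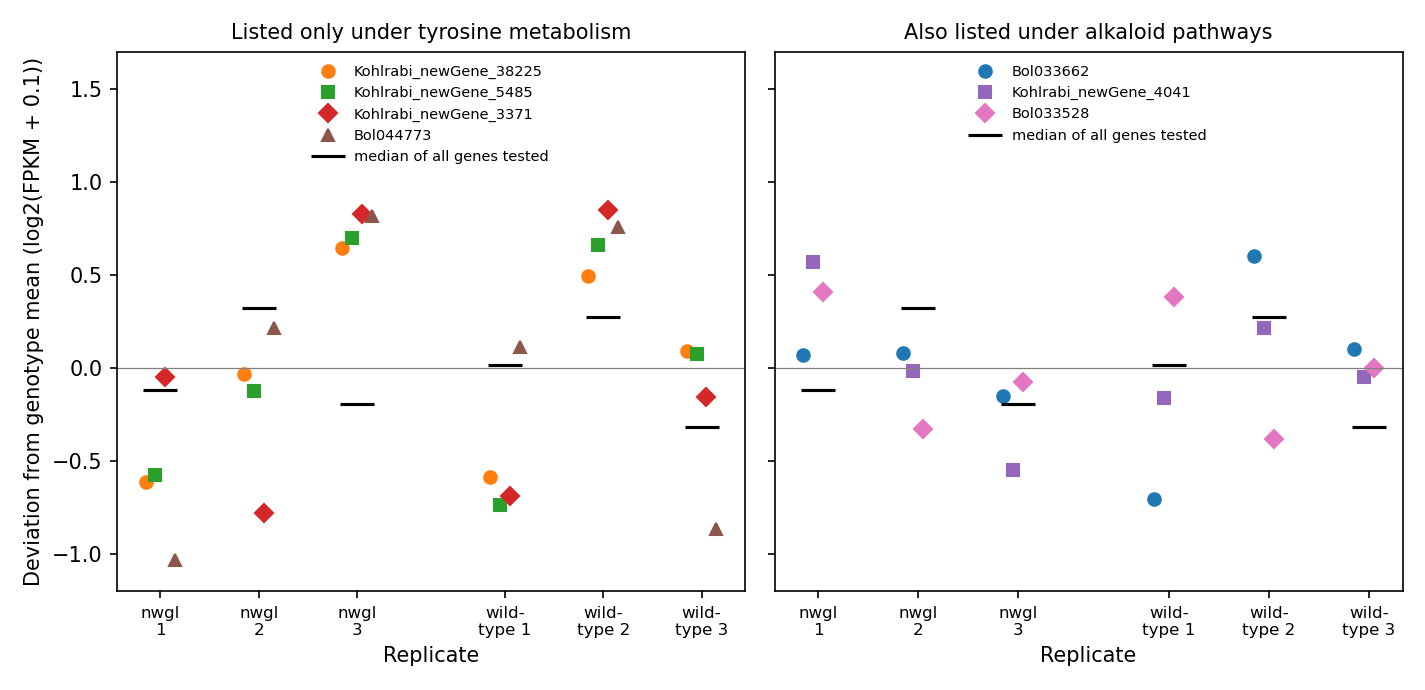
Deviation of each gene from its genotype mean on the log2(FPKM + 0.1) scale in 3 *nwgl* and 3 wild-type replicates, for the 4 genes listed only under tyrosine metabolism (left) and the 3 also listed under alkaloid pathways (right), with black bars at the median of all genes tested. In *nwgl* replicate 3 the 4 genes lie together above 0 (median 0.76), while the 3 genes lie below it (median -0.15) near the median of all genes (-0.20). The listings are those of the study's down-regulated pathways.

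The study's list of down-regulated pathways names 22 further genes, and all 22 were lower in *nwgl* leaves, with a median log2 fold change of -2.10 and 7 called, against 1.2% of all genes tested. These too were chosen as lower in these libraries. Cysteine and methionine metabolism joins *Bol033528* and *Bol033662* to *Bol009286* and *Bol011986*. *Bol011986* was at 0.1299, 0.101 and 0.632 FPKM in *nwgl* replicates 1, 2 and 3, against 2.33, 2.60 and 2.94 FPKM in the wild-type replicates. *Bol009286* was at 5.69, 10.9 and 4.74 FPKM in *nwgl* replicates, against 31.5, 41.8 and 9.17 FPKM in wild-type replicates. *Bol011986* was called and *Bol009286*, in which the genotypes overlapped, was not. Each was called in 1 of the 6 fits without one library, and under the 8 other settings *Bol011986* was called in 7 and *Bol009286* in 1. Of the 22 genes, 0 were called without *nwgl* replicate 1 or without wild-type replicate 1, and 2 without *nwgl* replicate 2 or without wild-type replicate 2.

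Glucosinolates, the sulphur compounds of the cabbage family, are likewise built from amino acids. The study's list of down-regulated pathways names 2 genes of their synthesis. Its separate Gene Ontology analysis counts more lowered genes under glucosinolate biosynthesis, and those were not examined here. *Bol038222* was at 0.158, 0.291 and 1.63 FPKM in *nwgl* replicates 1, 2 and 3, against 8.17, 6.88 and 5.68 FPKM in the wild-type replicates. *Bol040365* was at 6.73, 5.71 and 23.9 FPKM in *nwgl* replicates, against 94.5, 75.3 and 52.6 FPKM in wild-type replicates. Both were highest in *nwgl* replicate 3, like *Bol011986* and the 4 genes listed under tyrosine metabolism alone. In wild-type leaves they were highest in replicate 1, unlike the 4 genes. Both were called, and each kept its call in 2 of the 6 fits without one library.

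The study paired *Bol044773* with 1 long non-coding RNA, MSTRG.76018.3, that lies within 100 kb of it. Its pairs rested on a Spearman correlation of expression as well as on predicted targets such as nearby genes. This transcript was at 0.0395, 0.214 and 0.0658 FPKM in *nwgl* replicates 1, 2 and 3 and was listed at 0 in all 3 wild-type replicates. Its mean of 0.0532 FPKM was below the minimum for testing, and it had been chosen as changed in these libraries. *Bol044773* and MSTRG.76018.3 did not share an order among the *nwgl* replicates, in which *Bol044773* was highest in replicate 3 and the lncRNA in replicate 2. This order within one genotype is a different measure from the study's correlation. The 3 other transcripts of the same lncRNA locus in the table overlapped between the genotypes, and all were above 0 in each library except MSTRG.76018.6, which was listed at 0 in wild-type replicate 3. MSTRG.76018.1, the most abundant, was at 2.74 ± 0.365 FPKM in *nwgl* leaves and 4.09 ± 1.14 FPKM in wild-type leaves (SD, n = 3 each). In a separate limma fit over 2340 lncRNAs, 2.78% of which were called, none of these 3 was called, and none had an unadjusted p under 0.05.

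Another 40 genes lie within 100 kb of MSTRG.76018.3, and position rather than expression selected them. Of these, 28 were listed in the table and 18 were tested. Their median log2 fold change was -0.08, and 11 were lower and 7 higher in *nwgl* leaves. Only *Bol044767* was called (5.56% of the 18, beside 4.89% of all genes tested in either direction and 3.69% called higher), and it was the 1 gene with an unadjusted p under 0.05. *Bol044767* was at 3.08, 3.82 and 1.90 FPKM in *nwgl* replicates 1, 2 and 3, against 1.002, 0.482 and 0.269 FPKM in the wild-type replicates. The log2 fold change of this gene, opposite in sign to that of *Bol044773*, was 2.24 (limma, standard error 0.52, adjusted p = 0.0413). Leaving out one library at a time gave adjusted p from 0.0461 to 0.195 in limma, with the call kept in 2 of 6 fits. The most negative log2 fold change among the 18 was -2.75 for *Bol044780*, which was not called. *Bol044780* was at 0.363, 0.268 and 0.202 FPKM in *nwgl* replicates 1, 2 and 3, against 33.1, 1.72 and 0.160 FPKM in the wild-type replicates, so that the genotypes overlapped. *Bol044773* itself was not called in the main fit or under any of the 14 alternatives.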

How the data were processed

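Reads were aligned to the Bolbase cabbage genome by the authors, and the submitters' processing notes name HISAT2 and StringTie 1.3.1. The deposited tables hold FPKM of 31497 genes or new loci and of 4459 lncRNA transcripts in 6 libraries. The study's read counts were not used here. Genes whose FPKM averaged 0.1 or more (24332 genes, among them all 7 described) were fitted with limma 3.58.1 in R 4.3.3 (lmFit, eBayes with trend) on log2(FPKM + 0.1), without a replicate block, and p-values were adjusted over all of them. The fit was tested on simulated data with independent noise for each gene, which hold no shifts shared by the genes of a library. A p-value measures the spread between the sequenced samples only. FPKM without counts gives no counting error, so precision was judged from the replicates. Other work was done in Python 3.11.15 with numpy 2.4.6, pandas 2.3.3 and matplotlib 3.10.9. Relative depth was read from genes under 0.3 FPKM in both libraries.

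The genes, lists and tests were chosen with earlier results of these data known. Genes named are the 7; those listed with them under cysteine and methionine metabolism; glucosinolate genes; the 2 phenylpropanoid genes of largest called change; the paired lncRNA and called genes near it (with *Bol044780*, singled out after its values were seen); *Bol018504*; and the 2 genes most alike in profile. Other transcripts of that lncRNA locus were added later. Alternatives were pseudocounts of 1 and 0.01, no filter or a minimum mean of 1 FPKM, quantile normalization, scaling by median-of-ratios size factors, no trend in eBayes, a replicate block, and each library left out. A list of tyrosine enzymes by name and leaf markers were not analysed here, since the RefSeq table used (assembly BOL of TO1000) held no ID of these genes.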

Additional observations from a re-analysis of the deposited data

How the results depend on the processing

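All 7 genes were lower in *nwgl* under every setting that tested them. *Bol033528*, with a mean under 1 FPKM, was not tested with the higher minimum. Of the 7, 4 were called in the main fit, 2 with a pseudocount of 1 or with no filter, 3 with a pseudocount of 0.01 or without trend, 6 with quantile normalization, and 1 to 4 with a library left out. The median of their log2 fold changes was -1.45 with a pseudocount of 1, whose construction shrinks low values, and -2.41 to -1.79 with a library left out. Over all genes, 897 were called higher and 293 lower. The higher calls were 561 with no filter and 563 with a minimum mean of 1 FPKM. The lower calls were 178 with a pseudocount of 1, 172 with a minimum mean of 1 FPKM and 499 with quantile normalization. With a library left out the higher calls were 292 to 1050 and the lower 89 to 219. Calls among the 22 other down-regulated pathway genes were 4 with a pseudocount of 1, 2 with no filter, 13 with median-of-ratios scaling, 16 with quantile normalization and 0 to 8 with a library left out. Calls among the 10 phenylpropanoid genes were 2 to 6 with a library left out. *Bol044767* near the lncRNA was not called (0 calls) with a pseudocount of 0.01, no filter or a minimum mean of 1 FPKM, and there were 0 to 1 calls with a library left out. The ratio of summed FPKM was 0.165 to 0.243 with a library left out. The mean r over the 21 pairs was -0.0332 to 0.203 with a library left out, and it was negative (-0.0332) without wild-type replicate 2. The causes were not tested. With the replicate number as a block, 1314 genes were called, among them 4 of the 7. Deviations of same-numbered samples correlated at -0.0168, 0.106 and 0.156 over genes, and those of differently numbered samples at -0.213 to 0.112. The labels do not say whether samples of the same number were paired, and this was not tested.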

Other observations

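Phenylpropanoids derive from phenylalanine, which shares the shikimate pathway with tyrosine, and the study lists 10 genes of their synthesis among those raised in *nwgl* leaves. All 10 were higher here, with a median log2 fold change of 3.20, and 6 were called by limma, where 3.69% of all genes tested were called higher. These genes were chosen as higher in the same libraries, so their direction is no independent evidence, and without *nwgl* replicate 1 only 2 were called. The largest called change was that of *Bol045598*, at 5.08, 10.2 and 1.19 FPKM in *nwgl* replicates 1, 2 and 3, against 0.00724, 0 and 0.0499 FPKM in the wild-type replicates. *Bol032751* was at 8.99, 7.43 and 18.2 FPKM in *nwgl* replicates, against 1.97, 0.0129 and 0.306 FPKM in wild-type replicates. Phenylpropanoid and tyrosine genes of the study's lists thus lay in opposite directions, as the lists from which they come require.

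The mean profile of the 7 tyrosine metabolism genes over the 6 libraries was compared with that of 17368 other genes that averaged 1 FPKM or more. The genes most like it were Kohlrabi_newGene_40040 (Pearson r = 0.995) and *Bol043020* (Pearson r = 0.993), over 6 libraries that share the difference between genotypes. Kohlrabi_newGene_40040 was listed at 0, 0 and 0.0307 FPKM in *nwgl* replicates 1, 2 and 3, against 3.996, 13.7 and 6.99 FPKM in the wild-type replicates. *Bol043020* was at 0.0984, 0.107 and 0.136 FPKM in *nwgl* replicates, against 1.05, 2.89 and 1.79 FPKM in wild-type replicates. In both, as in the mean of the 7 genes, *nwgl* replicate 3 and wild-type replicate 2 were the highest of their genotypes. There were 126 genes with an r of at least 0.95.

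New loci made up 4 of the 7 genes and 4473 of the 31497 entries of the table. Among 3423 new loci tested, 2.13% were called lower in *nwgl* leaves by limma, beside 1.05% of 20909 annotated genes tested, and this difference was not tested.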
